A study of Mus musculus with 2 samples.

Results

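The microRNA genes of the Hox clusters were described in hearts of mouse embryos at embryonic day 10.5. They are Mir10a, Mir10b, Mir615, Mir196a-1, Mir196a-2 and Mir196b, a set defined by gene name and chosen with earlier results of these data known. All 6 were among the 1973 microRNA genes listed in the count tables. The tissue was heart of strain B6NCrl, healthy and of mixed sex, with no treatment and no mutant allele given. The design has 1 group with 2 biological replicate libraries of small RNA, from 69 pooled hearts for replicate 1 and from 51 for replicate 2. No conditions were compared, so every comparison is between genes or between the 2 libraries.

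Hox genes encode transcription factors that give cells their position along the head-to-tail axis, and they lie in 4 clusters, Hoxa, Hoxb, Hoxc and Hoxd. Within a cluster the genes are numbered by paralog group, and low-numbered groups are switched on earlier and reach further towards the head than high-numbered ones. MicroRNA genes lie between the coding genes, on the same strand, and several are expressed in domains like those of their neighbours. A microRNA is cut from a hairpin precursor and binds target messenger RNAs mainly through its seed, the bases from position 2 to 8. Heart progenitors of the posterior second heart field express low-numbered Hox genes in the mouse, while high-numbered groups are known from the trunk, limb buds and tail.

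The 6 genes give few distinct mature sequences, and these decide what could be counted. The main (5p) arms of the Mir10 and Mir196 genes, the 3p arm of Mir615 and the other arms of the Mir196a genes are shown 5′ to 3′ (RefSeq, GRCm38.p6) with the seed in capitals.
miR-10a-5p: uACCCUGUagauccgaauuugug
miR-10b-5p: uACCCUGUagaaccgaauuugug
miR-615-3p: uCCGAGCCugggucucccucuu
miR-196a-5p: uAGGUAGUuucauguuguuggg
miR-196b-5p: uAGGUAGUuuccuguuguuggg
miR-196a-1-3p: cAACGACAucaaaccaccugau
miR-196a-2-3p: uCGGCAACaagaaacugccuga

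miR-10a-5p and miR-10b-5p have the same seed and differ by U12A (miR-10a base, position from the 5′ end, miR-10b base). No other mature mouse microRNA in the RefSeq table has that seed. miR-196a-5p and miR-196b-5p likewise share a seed of their own and differ by A12C, counted the same way. miR-196a-5p occurs in the hairpins of both Mir196a-1 and Mir196a-2, whereas each of the other sequences shown occurs in 1 annotated hairpin. The authors' tables put reads that map to several places in a row of their own, which held 23.3% of reads in replicate 1 and 23.5% in replicate 2. A read of the whole miR-196a-5p fits both Mir196a hairpins equally well, so the counts of Mir196a-1 and Mir196a-2 are lower limits and do not measure miR-196a. Compared position by position from their 5′ ends, with no offset allowed, the 3p arms of these genes differ at 17 of 22 positions. That count does not measure how related the arms are. Each of them occurs in 1 annotated hairpin, so they can be told apart. Mir10a, Mir10b, Mir196b and Mir615 share no stretch of 20 bases with another annotated microRNA hairpin.

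The genes take 3 kinds of position in the clusters. Mir10a (ENSMUSG00000065519.1; mm10 chromosome 11, 96317165 to 96317274, plus strand) lies between Hoxb5 and Hoxb4, 1495 bases before the Hoxb4 coding sequence and in no annotated gene. Mir10b (ENSMUSG00000065500.2; chromosome 2, 74726070 to 74726137, plus strand) lies 1141 bases before the Hoxd4 coding sequence, in introns of Hoxd4 and of a Hoxd3 transcript. These genes therefore hold the same place next to paralog group 4 in different clusters.

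Mir615 (ENSMUSG00000076010.1; chromosome 15, 103014910 to 103015001, plus strand) lies in an intron of Hoxc5. Mir196b (ENSMUSG00000065443.1; chromosome 6, 52230081 to 52230165, minus strand) lies between Hoxa10 and the coding part of Hoxa9, in an intron or a noncoding exon of Hoxa9 according to the transcript. Mir196a-2 (ENSMUSG00000065488.1; chromosome 15, 102973350 to 102973434, plus strand) lies between Hoxc10 and the coding sequence of Hoxc9, in an intron of a long Hoxc5 transcript. Mir196a-1 (ENSMUSG00000065546.1; chromosome 11, 96265164 to 96265265, plus strand) lies 6276 bases before the Hoxb9 coding sequence and in no annotated gene. The 3 Mir196 genes are thus all next to paralog group 9. Of these, Mir196b and Mir196a-2 lie nearer to group 10, 2343 bases from the coding sequence of Hoxa10 and 2277 from that of Hoxc10. Their distances to the coding sequences of Hoxa9 and Hoxc9 are 3976 and 8218 bases.

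**Figure D1:**
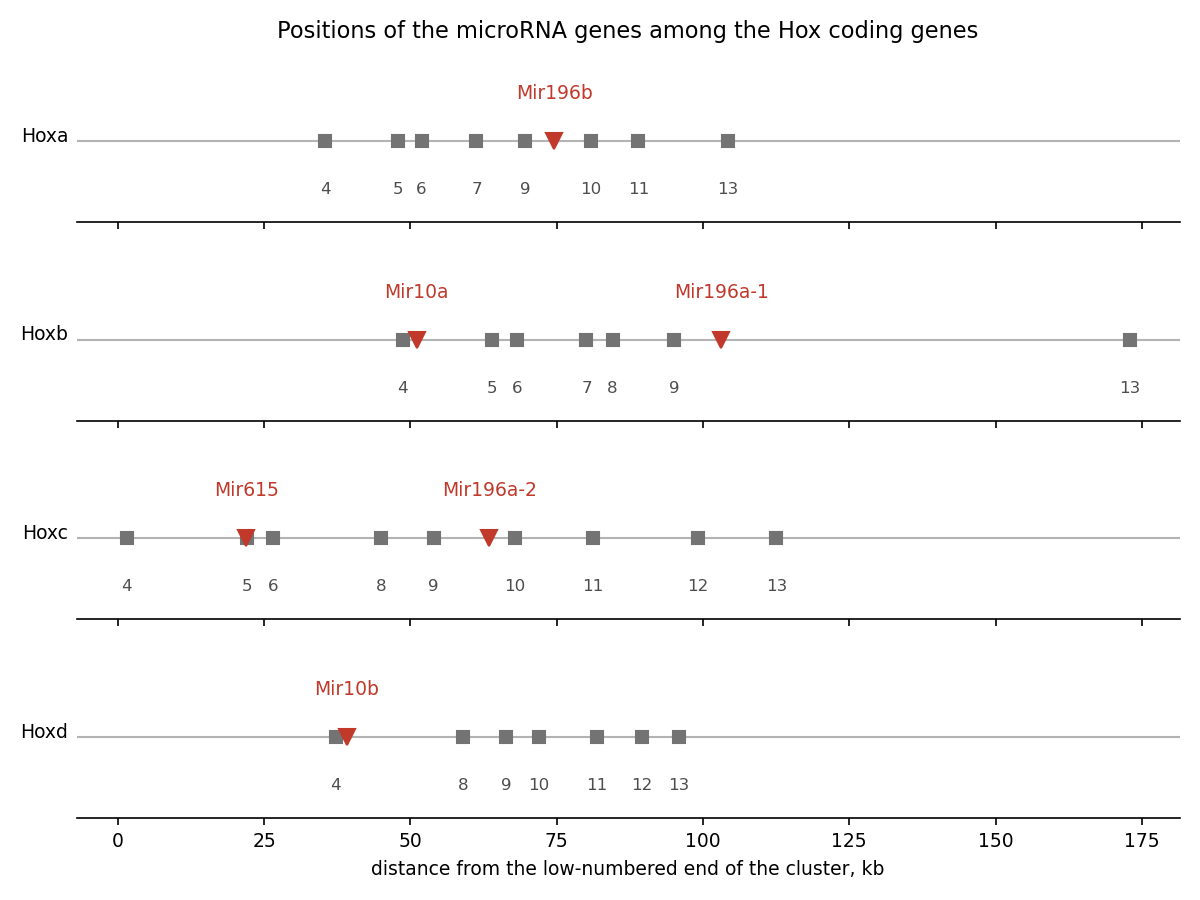
Positions of the 6 microRNA genes (red triangles) among the Hox coding genes of paralog groups 4 to 13 (grey squares at the middle of the coding sequence, numbered by group) in the 4 clusters. The horizontal axis is the distance in kb from the low-numbered end of each cluster. Mir10a and Mir10b sit beside group 4, Mir615 in group 5 and the Mir196 genes beside group 9.

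Levels are own-strand read counts per gene, scaled by the own-strand total of the library and written as CPM. These totals were 4163656 in replicate 1 and 4789068 in replicate 2. Where a gene had no count, its level may still be as high as that of 3 counts (0.721 CPM for replicate 1, 0.626 CPM for replicate 2). Values of single libraries carry exact 95% intervals after Clopper and Pearson, for counting error only. The 6 genes together had 17890 CPM in replicate 1 and 2051 CPM in replicate 2. That is a share of 1.79% (1.78 to 1.80) in replicate 1 and of 0.205% (0.201 to 0.209) in replicate 2, with a mean of 0.997% ± 1.12 (SD, n = 2). The spread between the libraries is larger than this mean, so the mean describes neither pool.

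Mir10a, the gene of the Hoxb cluster next to Hoxb4, was the most abundant member in both libraries. It had 38512 counts, or 9250 CPM (9158 to 9342), in replicate 1 and 5335 counts, or 1114 CPM (1084 to 1144), in replicate 2. Its mean was 5182 ± 5753 CPM (SD, n = 2), and it ranked 25 among the 1973 listed genes in replicate 1 and 80 in replicate 2. Mir10a is therefore a well counted microRNA of both pools, at a level that differed widely between them.

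Mir10b, its counterpart of the Hoxd cluster, had 26317 counts, or 6321 CPM (6245 to 6397), in replicate 1. In replicate 2 it had 2309 counts, or 482 CPM (463 to 502). The mean was 3401 ± 4128 CPM (SD, n = 2). Mir10a and Mir10b, which carry the same seed, together made up 87.0% of the counts of the 6 genes in replicate 1 and 77.8% in replicate 2. Most counted Hox-cluster microRNA therefore came from genes beside paralog group 4 in both libraries.

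Mir615, the microRNA of the Hoxc5 intron, had 3439 counts, or 826 CPM (799 to 854), in replicate 1. In replicate 2 it had 533 counts, or 111 CPM (102 to 121), and its mean was 469 ± 505 CPM (SD, n = 2). It held 4.62% of the counts of the 6 genes in replicate 1 and 5.43% in replicate 2, so it was a minor member of the set in both.

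Mir196b is the gene of the Mir196 family whose mature sequence is its own, so it is the only one of the 3 whose main arm could be counted. It had 6073 counts, or 1459 CPM (1422 to 1496), in replicate 1 and 1581 counts, or 330 CPM (314 to 347), in replicate 2. Its mean was 894 ± 798 CPM (SD, n = 2). It made up 8.15% of the counts of the 6 genes in replicate 1 and 16.1% in replicate 2. A microRNA from beside paralog group 9 was thus counted in both heart pools, more often than Mir615.

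Mir196a-2 had 142 counts, or 34.1 CPM (28.7 to 40.2), in replicate 1 and 62 counts, or 12.9 CPM (9.93 to 16.6), in replicate 2. Mir196a-1 had 3 counts, or 0.721 CPM (0.149 to 2.11), in replicate 1 and 4 counts, or 0.835 CPM (0.228 to 2.14), in replicate 2. Since both genes lose the shared arm to the row of reads with several places, these values are floors and no order between miR-196a and miR-196b follows from them. No member had a count on the strand opposite to the gene in either library, so own-strand counts and counts over both strands were equal for all 6.

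**Figure D2:**
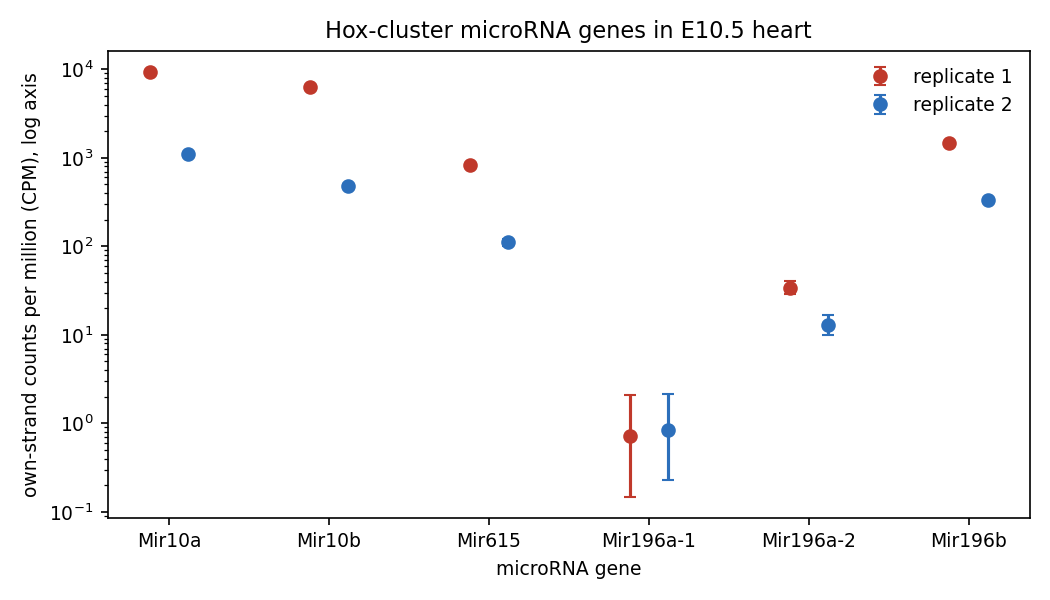
Own-strand CPM of the 6 genes on a log axis, with replicate 1 in red, replicate 2 in blue and bars for the exact 95% interval, which is smaller than the point for well counted genes. Replicate 1 lies above replicate 2 for 5 genes, and the intervals of Mir196a-1 overlap widely at 3 and 4 counts.

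The order of the counts was the same in both libraries. From high to low it was Mir10a, Mir10b, Mir196b, Mir615, Mir196a-2 and Mir196a-1. Each of the 5 pairs of neighbours in this order differed beyond counting error in each library (two-sided exact binomial test, Holm-adjusted over the 5 pairs of a library). The counts of Mir196a-2 and Mir196a-1 leave out the shared arm and are lower limits. The tests of pairs with these genes therefore rank what was counted and do not place miR-196a in the order. The distances between neighbours were not the same. Mir10a exceeded Mir10b 1.46-fold (1.44 to 1.49) in replicate 1 and 2.31-fold (2.20 to 2.43) in replicate 2. Mir10b exceeded Mir196b 4.33-fold (4.21 to 4.46) in replicate 1 and 1.46-fold (1.37 to 1.56) in replicate 2. Mir196b exceeded Mir615 1.77-fold (1.69 to 1.84) in replicate 1 and 2.97-fold (2.69 to 3.28) in replicate 2.

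The counts are reads per annotated hairpin gene and do not tell the mature arms from other parts of the hairpin. Reads of a mature arm would not grow with the length of the hairpin. Set per base of the annotated hairpin (110 bases for Mir10a and 68 for Mir10b), Mir10b exceeded Mir10a 1.11-fold (1.09 to 1.12) in replicate 1, while Mir10a exceeded Mir10b 1.43-fold (1.36 to 1.50) in replicate 2. The order of these paralogs in replicate 1 thus rests on not dividing by length, and the other neighbours kept theirs.

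The members differed strongly between the pools, and in 1 direction. Of the 6, 5 had at least 10 counts in a library and were tested by an exact two-sided binomial test given TMM-scaled library sizes, with Benjamini-Hochberg adjustment over all 424 genes tested. All 5 were higher in replicate 1. The background is high: 31.1% of the 424 tested genes were higher in replicate 1 and 61.6% passed in either direction, since the test asks only whether 2 libraries differ beyond counting error. The size of the ratios says more than the calls. The median of the 5 log2 ratios of replicate 1 over replicate 2 was 2.62, against 0.01 over all tested genes. The median tested gene differed 1.38-fold in either direction.

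Mir10b was 10.8-fold higher in replicate 1 (log2 ratio 3.44, exact 95% interval 3.38 to 3.50), and 4 of the 424 tested genes differed more. Mir10a was 6.86-fold higher (log2 ratio 2.78, 2.74 to 2.82), with 5 genes differing more. Mir615 was 6.13-fold higher (log2 ratio 2.62, 2.49 to 2.75), with 8 genes differing more. These members were thus among the most unequal genes of the whole data set.

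Mir196b was 3.65-fold higher in replicate 1 (log2 ratio 1.87, 1.79 to 1.95), and 19 tested genes differed more. Mir196a-2 was 2.17-fold higher (log2 ratio 1.12, 0.68 to 1.58; exact binomial test, adjusted p = 2.9e-07), and 67 tested genes differed more. Mir196a-1, with 3 and 4 counts, was too low to be tested, and a difference was not detectable at this depth. The adjusted p-values of the other 4 were below the smallest number the software can write. With total counts in place of TMM as the scaling, which shifts every log2 ratio by 0.27, the same 5 were higher, from 1.39 for Mir196a-2 up to 3.71 for Mir10b, and 46.2% of tested genes were higher in replicate 1.

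**Figure D3:**
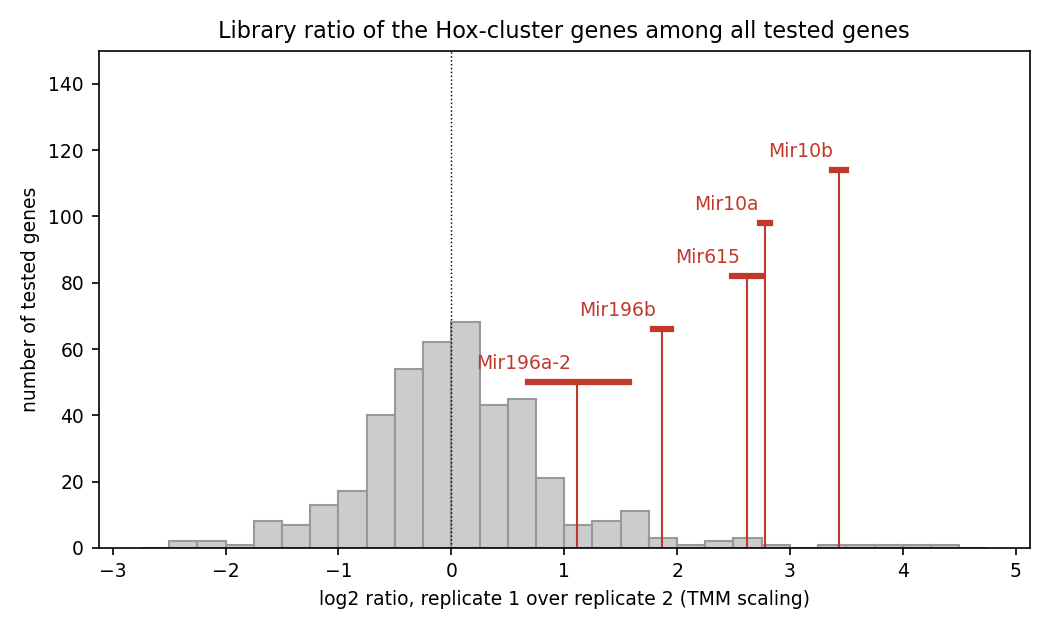
Log2 ratio of replicate 1 over replicate 2 for the 424 tested genes (grey histogram, number of genes per bin) and for the 5 tested members (red lines, with the exact 95% interval as a horizontal bar; line heights carry no value). The members lie from 1.12 to 3.44, to the right of most tested genes.

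The ratios were unequal among the members, and this does not depend on the scaling, which cancels between genes of the same library. The comparisons of neighbours in the order of the ratios were chosen after the values were seen, with Holm adjustment over 4 pairs. The ratio of Mir10b exceeded that of Mir10a 1.58-fold (1.50 to 1.66; Fisher's exact test, adjusted p = 1.4e-70). The ratio of Mir10a exceeded that of Mir615 1.12-fold (1.01 to 1.23; Fisher's exact test, adjusted p = 0.023). The ratio of Mir615 exceeded that of Mir196b 1.68-fold (1.51 to 1.87; Fisher's exact test, adjusted p = 4.9e-22), and that of Mir196b exceeded that of Mir196a-2 1.68-fold (1.22 to 2.29; Fisher's exact test, adjusted p = 0.0024). In this order the genes beside paralog group 4 came before the gene in group 5, and the genes beside group 9 came last. The ratio of Mir196a-2, the last in this order, rests on the reads that remained without the shared arm. These are 5 genes in 2 libraries, and the Fisher tests cover counting error only. A link between position and ratio was not tested.

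By cluster, the Hoxb genes held 0.925% of own-strand counts in replicate 1 and 0.111% in replicate 2, almost entirely from Mir10a. The Hoxd gene held 0.632% in replicate 1 and 0.0482% in replicate 2. The Hoxa gene held 0.146% in replicate 1 and 0.0330% in replicate 2. The Hoxc genes held 0.0860% in replicate 1 and 0.0124% in replicate 2. The sums of Hoxb and Hoxc are lower limits, since reads of the arm shared by Mir196a-1 and Mir196a-2 were not counted. No order of the clusters follows from these sums. Genes of every cluster were thus counted in both pools, and the sum of each cluster was higher in replicate 1.

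Of the lists of genes known from other tissues, the epithelial and sensory lists were higher in replicate 1 as a whole. The epithelial list (the Mir200 family with Mir203 and Mir205, which keep cells epithelial) had 7 of 7 genes higher in replicate 1, with a median log2 ratio of 1.60 and a range from 0.92 to 1.88. Its summed level was 7068 CPM in replicate 1 and 2089 CPM in replicate 2, led by Mir429, Mir200c and Mir205. The Mir183, Mir96 and Mir182 cluster of sensory organs had 3 of 3 higher, between 1.50 and 1.55, with sums of 5688 CPM in replicate 1 and 1627 CPM in replicate 2. Beside these lists, 31.1% of all tested genes were higher in replicate 1. No gene of these lists was at 0 or reached the ratios of Mir10a, Mir10b or Mir615.

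The liver and gut list was split. Mir122, the main liver microRNA, was higher at 3.87, with 3078 CPM in replicate 1 and 175 CPM in replicate 2. Mir192 and Mir194-2 were higher at 1.33 and 1.23, while Mir215 was lower in replicate 1 at -1.50, as was Mir194-1 at -1.42. Mir194-1 and Mir194-2 are near-identical copies of each other, with a shared stretch of at least 20 bases. Reads that fit both were not counted, so their ratios rest on the reads that remained. No gene of the list was at 0, and its summed level was 3440 CPM in replicate 1 and 504 CPM in replicate 2. Of 12 listed neural genes 7 were tested, 3 higher and 2 lower in replicate 1 (median 0.25), where 31.1% of all tested genes were higher and 30.4% lower. Their sum was 407 CPM in replicate 1 and 342 CPM in replicate 2. Mir124a-1, Mir124a-2, Mir124a-3 and Mir9-2 of that list had no count, but they have near-identical copies and so may be uncounted. In all, 11 of the 12 listed neural genes have such copies. With total counts as the scaling, 4 neural genes were higher and 0 lower, where 46.2% and 15.6% of all tested genes were.

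Heart muscle genes went the other way. Mir208b and Mir208a, which lie in introns of the heart's myosin heavy chain genes, and Mir499 were lower in replicate 1, at -1.52, -0.72 and -1.20. Of 7 listed heart muscle genes 6 were tested, with 4 lower and 0 higher, beside 30.4% of all tested genes lower in replicate 1. The summed level of this list was 34750 CPM in replicate 1 and 69059 CPM in replicate 2. Near-identical copies exist for 4 of its 7 listed genes, whose counts may miss reads. The heart muscle microRNAs thus exceeded the 6 Hox-cluster genes in each library, by far the more in replicate 2. The endothelial gene Mir126a had 53306 CPM in replicate 1 and 55504 CPM in replicate 2, and was lower in replicate 1 with a log2 ratio of -0.33, or -0.06 when scaled by total counts. Whether tissue from outside the heart in the pools, or a different make-up of the hearts, had a part in the Hox-cluster difference was not tested. In bulk tissue, more cells of a type and more RNA per cell cannot be told apart.

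**Figure D4:**
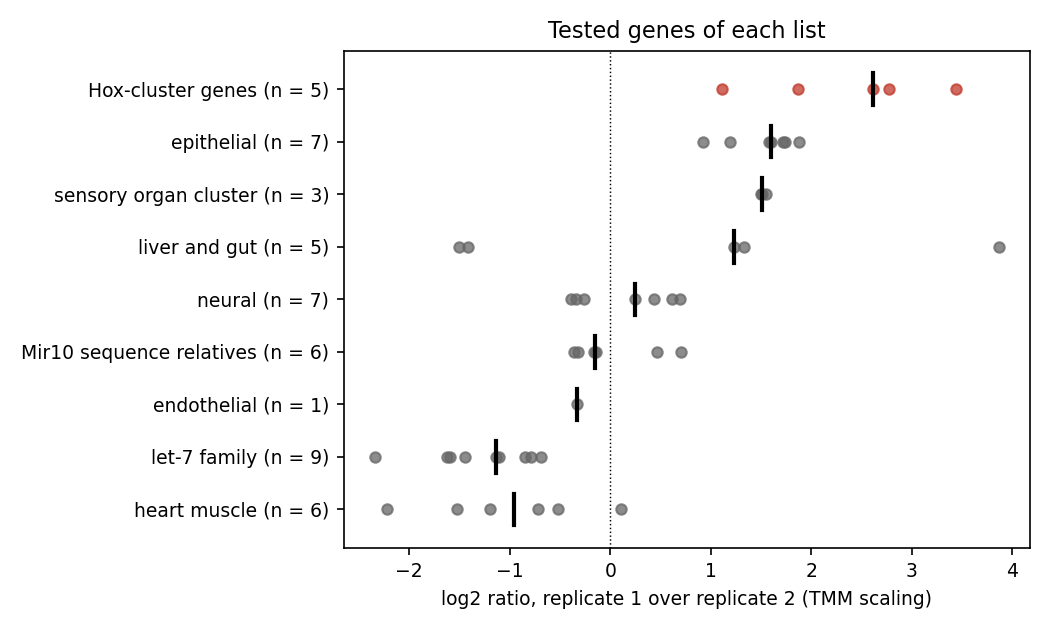
Log2 ratio of replicate 1 over replicate 2 for each tested gene of the Hox-cluster set (red) and of 8 other lists (grey), with a black bar at the median. The Hox-cluster median is 2.62, the epithelial median 1.60 and the heart muscle median -0.96.

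The genes most like the Mir10 genes in their library ratio were searched for among tested genes outside the set of 6 members. Members such as Mir615, with a log2 ratio of 2.62, were therefore left out of this search. Likeness was the difference in log2 ratio over the 2 libraries, among 297 non-member genes for which the libraries together held 100 counts or more. Nearest to Mir10a was Mir375, a microRNA of pancreatic islets and other endocrine cells, with a log2 ratio of 2.67 and 1013 CPM in replicate 1 against 131 CPM in replicate 2. The next were Mir141 at 1.88, Mir5126 at 3.69, Mir200c at 1.74 and Mir200b at 1.72. Nearest to Mir10b were Mir5126, on 142 counts in replicate 1 and 10 in replicate 2, and Mir122, followed by Mir375, Mir141 and Mir200c. With 2 libraries, likeness is a single number per gene and says little beyond it.

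Relatives of Mir10 in sequence, outside the Hox clusters, had ratios nearer to 0. The mature sequence of Mir100 holds a run of 11 bases in common with miR-10a, 1 base nearer to its 5′ end and with a different seed, and that of Mir99a holds a run of 10.
miR-100-5p: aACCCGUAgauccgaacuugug
miR-99a-5p: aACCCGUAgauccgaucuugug
The Mir125 genes that lie near them were listed with them, though their sequences were not compared with those of the Mir10 genes. Together these 6 genes summed to 64998 CPM in replicate 1 and 61053 CPM in replicate 2. Mir100 was higher in replicate 1 at 0.47, and Mir99a and Mir99b were lower at -0.32 and -0.14. In all 2 of 6 were higher and 4 lower (median -0.15), beside 31.1% and 30.4% of all tested genes. Near-identical copies exist for 2 of these 6 genes, whose counts may miss reads. Scaled by total counts, 4 of these 6 were higher and 1 was lower (median 0.12), against 46.2% of all tested genes higher and 15.6% lower in replicate 1 with that scaling. Mir99b was among those that turned, to 0.14.

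The seed of the Mir196 genes, AGGUAGU, recurs in let-7g at an offset of 1 base. In let-7g, of a family known to build up as tissues mature, the same letters begin at position 3.
let-7g-5p: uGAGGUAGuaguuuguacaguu
All 9 tested let-7 family genes were lower in replicate 1, with a median log2 ratio of -1.14, whereas Mir196b was higher. Of all tested genes 30.4% were lower. Scaled instead by total counts, 8 let-7 genes were lower, beside 15.6% of all tested genes, and Mirlet7a-1 did not pass at -0.51. Mirlet7g had 4705 CPM in replicate 1 and 8382 CPM in replicate 2, Mirlet7i 2798 CPM in replicate 1 and 7153 CPM in replicate 2, and Mirlet7d 491 CPM in replicate 1 and 1222 CPM in replicate 2. Near-identical copies exist for 5 of the 10 listed let-7 genes, whose counts may miss reads.

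Hox messenger RNAs are among the known targets of these microRNAs, and miR-196 is known to direct cleavage of the Hoxb8 message in mouse embryos. The target was not measured here, and the sequences are shown as background to what the counts may act on. The longest annotated 3′ UTR of each of 20857 coding genes was searched for its best ungapped pairing with miR-196a. Hoxb8 was 1 of 2 genes in which all 22 bases paired, 21 of them by Watson-Crick pairs and 1 by a G:U pair, which falls in the seed. The site lies on mm10 chromosome 11, 96284888 to 96284909, plus strand, with the bases opposite the seed in capitals.
Hoxb8 site: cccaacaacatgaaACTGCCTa
With miR-196b, whose sequence occurs in 1 annotated hairpin, 21 of the 22 bases pair with this site, as its A12C change gives a mismatch. Hoxb8 was 1 of 15 genes with 21 or more bases paired to miR-196b.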

How the data were processed

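Small RNA of 2 heart libraries was given as read counts per microRNA gene, deposited by the authors without normalization and made from 1 alignment per library to mouse mm10 with GENCODE M4 genes, per the file headers of the README texts. Aligner and trimming were not given in the sources used here. Each table gives a count over both strands, on the gene's strand and on the opposite strand. The own-strand count was used. Rows that name no gene stayed out of library sizes, and besides reads with several places they held 26.3% and 25.5% as unmapped and 8.98% and 7.41% as outside the genes in replicates 1 and 2. Reads carry no molecular identifiers, so intervals cover counting error only.

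Symbols, positions and transcripts came from GENCODE M21, on the same assembly, with 1894 of 1973 identifiers matched by stable identifier. Genes with at least 10 counts in a library were tested (exact conditional binomial test, scipy 1.17.1), with library sizes scaled by TMM (edgeR 4.0.16) and Benjamini-Hochberg adjustment at 0.05. A prior count of 0.5 entered the log2 ratios. The test compares 2 libraries and not conditions. It was checked on simulated counts that held counting error only, with total counts as library sizes. That check does not cover further spread between real libraries. With 1 library per pool, pool and library preparation cannot be told apart. Alternatives were total counts, DESeq2 1.42.0 size factors, no filter on low counts, a prior count of 2, both strands, each replicate alone, no Mir335 (the most abundant gene) and division by hairpin length. Named are all members, the 5 non-member genes nearest to Mir10a and to Mir10b, and up to 3 leading genes per list. Further list genes were named for their direction or for a count of 0 after their values were seen. The members and lists were chosen with earlier results of these data known.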

Additional observations from a re-analysis of the deposited data

How the results depend on the processing

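No paired analysis was possible because the labels give 1 group with 2 replicates. All 5 tested members stayed higher in replicate 1 with total counts, DESeq2 size factors, no filter, both strands and a prior count of 2, with log2 ratios from 3.41 to 3.71 for Mir10b and from 1.09 to 1.39 for Mir196a-2. The prior enters only the log2 ratio and not the test, and no member had an opposite-strand count. The settings with both strands and with a prior count of 2 could therefore hardly change these calls. The number of neighbouring pairs in the same order in both libraries was 5, and 3 with counts divided by hairpin length, since that turns Mir10a and Mir10b in replicate 1 by construction. The share of the 6 genes, 0.997% on average, was 0.205% without replicate 1 and 1.79% without replicate 2, so either library decides it. It was 0.952% with both strands, 1.16% without Mir335 and 1.22% without genes that have a near-identical copy. With both strands, without Mir335 and with each replicate left out, 4 members had at least 100 CPM in the libraries used. The 3 and 4 counts of Mir196a-1 and the reads of miR-196a that map to several places limit what can be said of the Mir196a genes.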
